A study of Mus musculus with 72 samples.

Results

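The miR-181 family was followed across 3 brain regions, 2 genotypes and the presence or absence of an old peripheral nerve injury. Its members here are the 5 rows of the deposited count tables named mmu-miR-181a-5p, mmu-miR-181b-5p, mmu-miR-181c-5p, mmu-miR-181d-5p and mmu-miR-181d-3p (mmu for mouse, left out from here on), of 1927 mature miRNAs in all. They were chosen by name, and another 5 rows carry other arms of the same hairpins. Small RNA of male mice came from cortex and striatum of the left side and from cerebellum of the right. The mice were wild type or Thap1+/-, that is heterozygous for the gene of a transcription factor mutated in DYT6 dystonia. In each genotype they were either naive or had received a crush of the right sciatic nerve, lasting 1 min, when 12 weeks old, and the labels give 12 weeks after injury as the time of both. This makes 12 groups with 6 libraries each, except cortex of naive wild-type mice, of which 5 libraries were analysed. The labels call the libraries biological replicates but name no animals, so the p-values measure the spread between these libraries.

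A miRNA hairpin gives a 5p and a 3p arm, and the arm that is loaded into Argonaute as the guide finds its target mRNAs mainly through its seed, bases 2 to 8. The 5p arms are the guides of the miR-181 family, and the 3p arms, which were the less abundant ones here, are called passengers. In rodent neurons miR-181a is known to limit the AMPA receptor subunit GluA2, in lymphocytes it tunes antigen receptor signalling, and in rat heart muscle miR-181c reaches mitochondria and represses mt-Co1, which is encoded there. The comparisons ask where in the brain each member is abundant, and whether its level differs with the genotype, with the injury or with both.

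The mature sequences are shown because the 5p members share 1 seed and differ by a few bases outside it, which bears on how reads can be divided among them. They are RefSeq's, build GRCm38.p6, written 5′ to 3′, with the seed in capitals.
miR-181a-5p: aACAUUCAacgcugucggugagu
miR-181b-5p: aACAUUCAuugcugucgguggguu
miR-181c-5p: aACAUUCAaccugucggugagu
miR-181d-5p: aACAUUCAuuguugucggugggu
miR-181d-3p: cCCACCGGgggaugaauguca

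All 4 of the 5p members carried the seed ACAUUCA, and none of the other names among 1679 mature miRNAs in the reference did. With positions counted from 1 at the 5′ end, miR-181a-5p and miR-181b-5p differed at 3 positions (A9U, C10U and A21G), and miR-181b-5p and miR-181d-5p at 1 (C12U), apart from 1 extra base at the end of miR-181b-5p. miR-181c-5p equalled miR-181a-5p without its base 11. How reads that match several of these sequences were counted is not given in the sources used here, so the split between miR-181b-5p and miR-181d-5p in particular is uncertain. miR-181d-3p has a seed of its own, CCACCGG.

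The family comes from 3 clusters, and these are the reason that arms can tell loci apart. Mir181a-1 (chr1:137966455-137966541) and Mir181b-1 (chr1:137966639-137966718) lie 97 bases apart on the plus strand within an intron of the non-coding gene Gm4258. Both also overlap exon sequence of A430106G13Rik, another non-coding gene on the same strand. Mir181a-2 (chr2:38852735-38852810) and Mir181b-2 (chr2:38853830-38853918) lie 1019 bases apart on the plus strand, antisense to an intron of Nr6a1, which encodes a nuclear receptor. Mir181b-2 also overlaps an exon of Gm44144 on the other strand. Mir181d (chr8:84178716-84178787) and the mature arms of Mir181c (chr8:84178885-84178945) lie 97 bases apart on the minus strand, in an intron of Nanos3 on the same strand. The 5p arms of both copies of miR-181a are identical and are counted in 1 row, as are those of miR-181b. The 3p arms differ between the copies, so miR-181a-1-3p and miR-181a-2-3p report on chromosomes 1 and 2.

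Totals ran from 7479448 to 12589140 counts per library. The 9 let-7 and miR-98 guide rows took 41.4% to 56.6% of the counts in cortex, 39.0% to 50.1% in striatum and 55.4% to 75.7% in cerebellum. Levels are given as CPM, counts scaled to a common library total, which such differing shares can move. Fold changes come from edgeR after TMM scaling, which sets the bulk of the miRNAs level between libraries. Several calls depended on this choice. The fold change on library totals alone is given beside many of those, and for the others the loss of the call is stated. A call is an adjusted p under 0.05 in edgeR's quasi-likelihood test with Benjamini-Hochberg adjustment over all miRNAs tested. In bulk tissue, fewer cells of a type and less RNA per cell cannot be told apart. RNA of cerebellum was extracted with another kit than that of cortex and striatum, and this kit and the region cannot be told apart. miR-206-3p, which is abundant in cerebellum, stood at 2615 ± 341 CPM in naive wild-type cerebellum (SD, n = 6), at 278 ± 48.1 in striatum (SD, n = 6) and at 25.7 ± 6.62 in cortex (SD, n = 5).

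Libraries are named by their columns, with CX, STR and CB for the regions and DYT6KO for Thap1+/-. CB_DYT6KO_crush_46 stood apart from the other 5 libraries of its group in all 4 of the 5p members, and results that rest on it are given with and without it. In CX_DYT6KO_naive_18 the let-7 and miR-98 rows took 56.1% of the counts, against 46.1% to 49.6% in the other 5 libraries of its group, and it too is named where it decides a result. STR_DYT6KO_crush_8 also stood apart from the others of its group over all miRNAs. Its chi-square per degree of freedom against them was 1100 to 1635, and 39.3 to 305 among them. Its miR-181c-3p and miR-181a-2-3p, at 60.8 and 3.67 CPM, lay outside their 22.2 to 28.5 and 8.54 to 11.9.

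miR-181a-5p was the most abundant member in every library and miR-181d-3p the least. Over the libraries of a region, miR-181a-5p had 2480 ± 255 CPM in cortex (SD, n = 23), 1908 ± 273 in striatum (SD, n = 24) and 2278 ± 607 in cerebellum (SD, n = 24). miR-181b-5p was next, with 626 ± 53.1, 601 ± 97.1 and 630 ± 171 CPM in the same order. The spread of cerebellum is widened by the library that stood apart.

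The members of the chromosome 8 cluster were rarer and varied more between regions. miR-181c-5p had 140 ± 31.7 CPM in cortex (SD, n = 23), 54.9 ± 16.7 in striatum (SD, n = 24) and 192 ± 67.5 in cerebellum (SD, n = 24). miR-181d-5p had 95.3 ± 13.8, 36.6 ± 10.3 and 86.8 ± 25.8 CPM. The passenger miR-181d-3p had 2.59 ± 0.98, 1.31 ± 0.66 and 2.16 ± 0.67 CPM, resting on 0 to 49 counts per library, and 1 library, STR_wt_crush_11, had none. The other 4 members had at least 227 counts in every library, and all 5 passed the filter on low counts in each fit.

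Together the 4 guides took 0.334% ± 0.0331 of all counts in cortex, 0.260% ± 0.0388 in striatum and 0.319% ± 0.0854 in cerebellum. Ordered by group mean, the 4 striatal groups were the 4 lowest for miR-181a-5p, miR-181c-5p and miR-181d-5p. For miR-181c-5p the order ran from cerebellum of crushed wild-type mice at 204 ± 44.4 CPM (SD, n = 6) to striatum of naive wild-type mice at 47.5 ± 7.70 (SD, n = 6). Among neighbours in that order, the mean differed by more than the larger SD of the pair at 1 step, between cortex of crushed Thap1+/- mice at 115 ± 15.6 and striatum of crushed Thap1+/- mice at 62.6 ± 19.8. For miR-181b-5p no neighbouring groups differed beyond their spread, and striatal, cortical and cerebellar groups were interleaved.

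**Figure D1:**
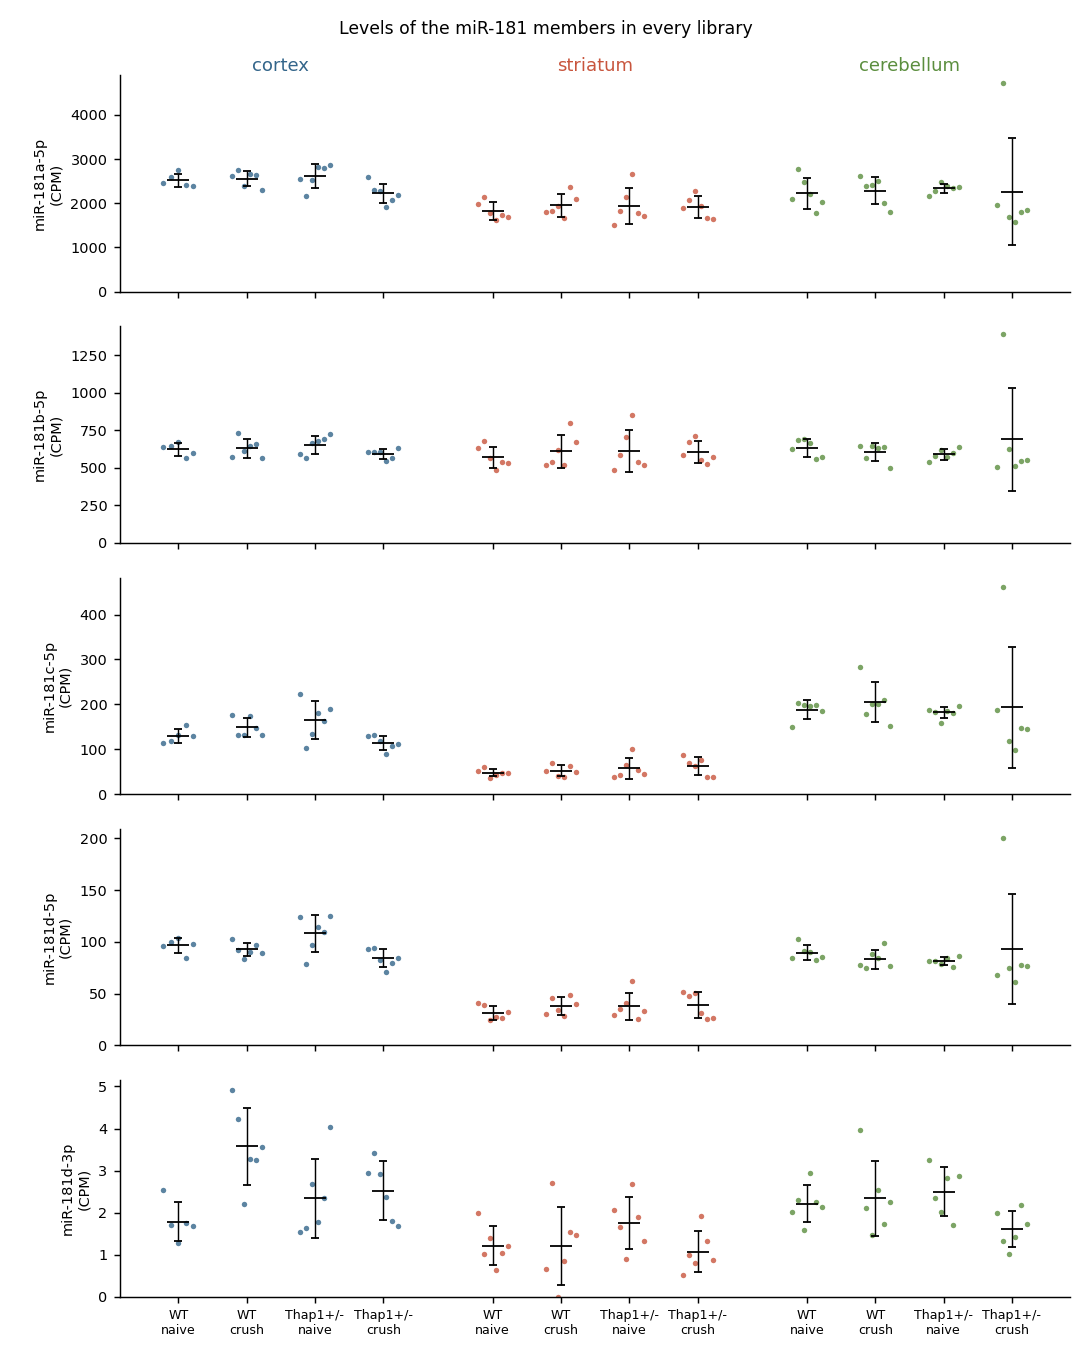
Each panel plots 1 member, with CPM of a library's own total on the vertical axis and the 12 groups on the horizontal axis. Points are libraries and bars are the mean ± SD, and the striatal groups are the lowest for miR-181a-5p, miR-181c-5p and miR-181d-5p, while 1 library of cerebellum in crushed Thap1+/- mice stands at 4715 CPM of miR-181a-5p.

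Between regions of naive wild-type mice, striatum had the lowest levels of the family, and the 2 guides of the chromosome 8 cluster differed by far more than miR-181a and miR-181b. miR-181c-5p had 115, 119, 129, 132 and 155 CPM in the 5 cortical libraries, and its lowest, median and highest values were 37.2, 46.7 and 59.7 in striatum and 149, 197 and 204 in cerebellum. Every striatal library lay below every library of the other regions, while the highest cortical library, CX_wt_naive_118, overlapped the lowest cerebellar one. miR-181d-5p had 84.5, 96.4, 97.9, 100 and 104 CPM in cortex, against 24.8, 29.6 and 40.7 in striatum and 82.6, 87.8 and 103 in cerebellum. Here too striatum did not overlap either region, and cortex and cerebellum covered the same range.

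miR-181a-5p, whose levels were 2393, 2418, 2466, 2602 and 2744 CPM in cortex, ranged over 1623, 1762 and 2140 in striatum and 1780, 2155 and 2765 in cerebellum. Striatum lay wholly below cortex, and cerebellum overlapped both. miR-181b-5p had 563, 601, 637, 646 and 674 CPM in cortex, 486, 553 and 677 in striatum and 559, 646 and 693 in cerebellum, so all 3 regions overlapped. miR-181d-3p had 1.28, 1.67, 1.70, 1.74 and 2.54 CPM in cortex, 0.64, 1.13 and 1.99 in striatum and 1.60, 2.20 and 2.94 in cerebellum, again with overlap throughout.

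In the test of striatum against cortex, where 54.6% of 579 miRNAs were called, 18.8% of the 579 as lower, all 5 members were lower in striatum. The log2 fold change was -1.77 ± 0.12 (SE) for miR-181c-5p (edgeR adjusted p = 1.27e-09) and -1.93 ± 0.14 for miR-181d-5p (edgeR adjusted p = 1.68e-09). It was smaller for miR-181a-5p, at -0.80 ± 0.11 (edgeR adjusted p = 7.92e-06), and for miR-181b-5p, at -0.46 ± 0.10 (edgeR adjusted p = 0.000732), and -0.88 ± 0.26 for miR-181d-3p. TMM scaling left the median of all miRNAs at 0.19 in this comparison and library totals at 0.52, both in favour of striatum. On library totals alone 3 members were called, miR-181a-5p at -0.47, miR-181c-5p at -1.45 and miR-181d-5p at -1.60, while miR-181b-5p at -0.12 and miR-181d-3p at -0.54 were not.

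Cerebellum against striatum gave calls for 68.4% of miRNAs, 31.1% as higher in cerebellum, and for all 5 members, each higher. miR-181c-5p led with 2.45 ± 0.12 (edgeR adjusted p = 1.67e-12), followed by miR-181d-5p with 1.97 ± 0.13, miR-181d-3p with 1.32 ± 0.24, miR-181a-5p with 0.76 ± 0.11 and miR-181b-5p with 0.62 ± 0.10. On library totals alone miR-181b-5p was no longer called, at 0.15. Between cerebellum and cortex 68.6% of miRNAs were called, 37.3% as higher in cerebellum, and of the members 1, miR-181c-5p, at 0.68 ± 0.12 (edgeR adjusted p = 7.84e-05), and on library totals it was called too, at 0.54. miR-181a-5p was at -0.04 ± 0.11 and miR-181d-5p at 0.03 ± 0.14 in that comparison, and neither passed.

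Cell type markers moved with the regions as well. The summed level of 5 neuron markers was 111380 to 133834 CPM in naive wild-type cortex, 118948 to 129248 in striatum and 68397 to 78752 in cerebellum. For 3 oligodendrocyte markers the sums were 1804 to 2257, 2721 to 4969 and 3108 to 5440 CPM, and for 4 vessel markers 35374 to 39562, 25947 to 31888 and 24416 to 35147 CPM. For 5 markers of choroid plexus and ependyma they were 158 to 204, 347 to 459 and 700 to 1575 CPM. Among these, miR-211-5p was at 0 in every library of naive wild-type cerebellum. For 5 markers of microglia and white blood cells the sums were 237 to 279, 269 to 332 and 156 to 229 CPM. The part of these cell types in the differences of the miR-181 members was not tested.

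The other mouse groups, which share no library with the naive wild-type ones, were compared in 1 fit over all 71 libraries. Striatum against cortex had miR-181c-5p and miR-181d-5p lower in all 3 groups. In crushed wild-type mice, where 35.4% of 655 miRNAs were called and 17.9% as lower, 4 members were lower, miR-181c-5p at -1.60 ± 0.22, miR-181d-5p at -1.35 ± 0.19, miR-181d-3p at -1.64 and miR-181a-5p at -0.46. In naive Thap1+/- mice, at 37.6% of miRNAs called and 19.2% as lower, 3 members were lower, miR-181c-5p at -1.78 ± 0.22, miR-181d-5p at -1.76 ± 0.19 and miR-181a-5p at -0.68 ± 0.14. In crushed Thap1+/- mice, at 35.7% called and 17.4% as lower, they were miR-181c-5p at -0.98 ± 0.21, miR-181d-5p at -1.22 ± 0.19 and miR-181d-3p at -1.37 ± 0.32. STR_DYT6KO_crush_8 had the most miR-181c-5p and miR-181d-5p of the striatal libraries in this comparison, at 87.2 and 52.1 CPM. None of these 3 calls in crushed Thap1+/- mice was lost without any 1 of the 12 libraries.

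After TMM scaling, cerebellum against striatum had all 5 members called as higher in each of these groups. The share of miRNAs called was 62.1% in crushed wild-type mice, 58.3% in naive and 58.5% in crushed Thap1+/- mice. The share called as higher was 30.1%, 29.2% and 27.9% in that order. miR-181c-5p lay between 2.32 ± 0.22 and 2.63 ± 0.22 and miR-181d-5p between 1.77 ± 0.20 and 2.02 ± 0.20. On library totals alone miR-181c-5p kept a call in each of these groups, at 1.63 to 1.97, as did miR-181d-5p, at 1.11 to 1.26. On that scale miR-181a-5p and miR-181b-5p lost theirs, and the sign of miR-181b-5p turned in crushed wild-type and naive Thap1+/- mice. miR-181d-3p lost its call in naive and crushed Thap1+/- mice, at 0.52 and 0.59. Without CB_DYT6KO_crush_46 the value of crushed Thap1+/- mice was 1.89 for miR-181c-5p and 1.65 for miR-181d-5p, and for miR-181a-5p and miR-181b-5p, at 1.01 ± 0.14 and 0.97 ± 0.14 with it, 0.66 each.

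Cerebellum against cortex was called for 4 guides in crushed wild-type mice (58.8% of miRNAs called), for miR-181c-5p in naive Thap1+/- mice (57.6%) and for 4 guides in crushed Thap1+/- mice (59.2%), each as higher in cerebellum. The share of miRNAs called as higher was 28.1%, 27.5% and 28.9%. miR-181c-5p was at 1.03 ± 0.21, 0.54 ± 0.21 and 1.39 ± 0.21 in that order, and without CB_DYT6KO_crush_46 the last was 0.91. The call in naive Thap1+/- mice was lost without any 1 of 5 libraries (CX_DYT6KO_naive_18, 48 or 76 and CB_DYT6KO_naive_16 or 18), at 0.43 to 0.50 with edgeR adjusted p of 0.0502 to 0.0947, and without the let-7 and miR-98 rows (edgeR adjusted p = 0.0567). That of miR-181d-5p in crushed wild-type mice was lost without any 1 of 10 of the 12 libraries, at 0.31 to 0.45 with edgeR adjusted p of 0.0505 to 0.181, and without the filter on low counts (edgeR adjusted p = 0.0786) or the let-7 and miR-98 rows (edgeR adjusted p = 0.0759), and that of miR-181a-5p without CX_wt_crush_139 (edgeR adjusted p = 0.0526). In crushed Thap1+/- mice miR-181a-5p, miR-181b-5p and miR-181d-5p were at 0.68, 0.88 and 0.80 with that library and at 0.33, 0.55 and 0.42 without it, called in both. On library totals alone the sign turned in crushed wild-type mice for miR-181a-5p, miR-181b-5p and miR-181d-5p, to -0.16, -0.06 and -0.16 with no call, while TMM had them higher in cerebellum at 0.42, 0.53 and 0.45, and miR-181c-5p at 0.46 was not called either. In naive Thap1+/- mice miR-181c-5p was at 0.13 on that scale (edgeR adjusted p = 0.635). In crushed Thap1+/- mice miR-181c-5p was still called on it, at 0.75, and miR-181a-5p, miR-181b-5p and miR-181d-5p, at 0.03, 0.22 and 0.15, were not. In crushed wild-type mice the median of all miRNAs was -0.06 under TMM and -0.63 on library totals, and let-7 and miR-98 rows took 57.3% to 64.7% of the counts in cerebellum and 41.4% to 48.6% in cortex.

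**Figure D2:**
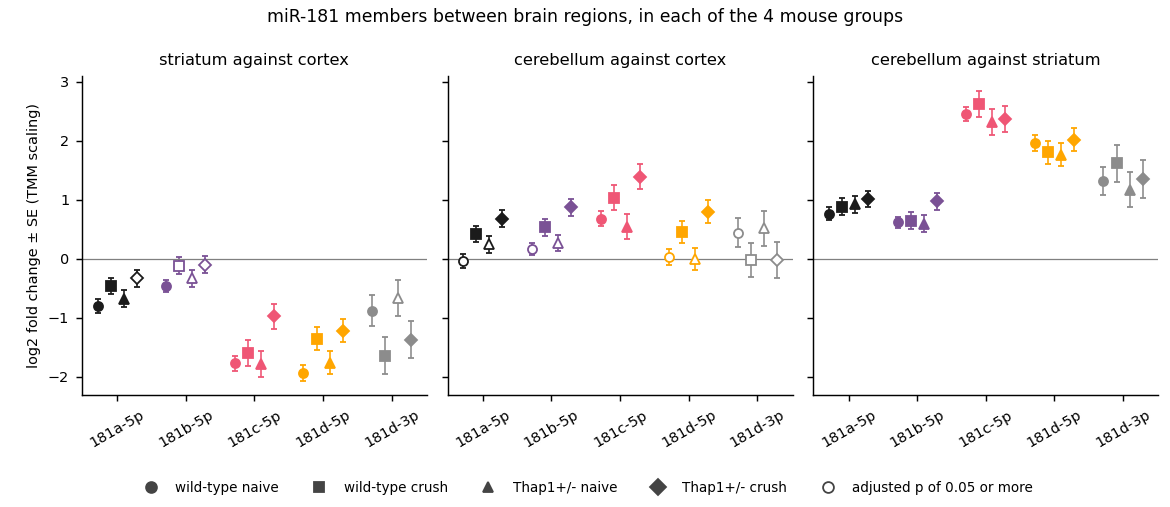
The vertical axis is the log2 fold change with its SE after TMM scaling for each member and each of the 3 pairs of regions, with the 4 mouse groups as symbols and open symbols for an adjusted p of 0.05 or more. Of the 4 guides, miR-181c-5p and miR-181d-5p lie lowest in striatum against cortex and highest in cerebellum against striatum in all 4 mouse groups.

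Ratios between members of 1 library cannot be moved by any scaling factor, and they separated the regions. In naive wild-type mice the mean log2 ratio of miR-181c-5p to miR-181a-5p was -4.29 in cortex, -5.27 in striatum and -3.55 in cerebellum, with no overlap between any 2 regions. Each pair differed, by -0.99, 0.73 and 1.72 (two-sided exact permutation test, p = 0.0046 in each after Benjamini-Hochberg adjustment over 15 comparisons). miR-181d-5p to miR-181a-5p was at -4.71, -5.86 and -4.62, and striatum differed from both other regions without overlap (exact permutation test, adjusted p = 0.0046 in both). Cortex and cerebellum differed by 0.09 in this ratio, within their spread (exact permutation test, adjusted p = 0.234).

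Within the chromosome 8 cluster, miR-181d-5p to miR-181c-5p was at -0.42 in cortex, -0.59 in striatum and -1.07 in cerebellum. Cerebellum was lower than cortex by 0.65 (exact permutation test, adjusted p = 0.00812) and lower than striatum by 0.48 (exact permutation test, adjusted p = 0.00464). miR-181b-5p to miR-181a-5p was highest in striatum at -1.68, against -2.02 in cortex and -1.80 in cerebellum, and all 3 pairs differed with adjusted p of 0.00464 to 0.0177 (exact permutation tests). The passenger ratio of miR-181d-3p to miR-181d-5p was higher in striatum than in cortex by 1.04 (exact permutation test, adjusted p = 0.0162), on few counts of the passenger.

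Over all libraries of a region, miR-181c-5p stood at a mean ratio of 0.0556 to miR-181a-5p in cortex, 0.0279 in striatum and 0.0829 in cerebellum. miR-181d-5p stood at 0.0383, 0.0187 and 0.0381, and miR-181b-5p at 0.253, 0.314 and 0.277. The single libraries ran from 0.0139 to 0.0274 in striatum for miR-181d-5p to miR-181a-5p, below all of cortex (0.0337 to 0.0487) and cerebellum (0.0298 to 0.0493).

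The other arms of the hairpins gave a view by locus. miR-181c-3p, the passenger of miR-181c, had 76.0 ± 19.5 CPM in cortex (SD, n = 23), 30.9 ± 7.91 in striatum (SD, n = 24) and 85.7 ± 14.8 in cerebellum (SD, n = 24). In naive wild-type mice it was lower in striatum than in cortex, by -1.38 ± 0.13 (edgeR adjusted p = 7.7e-08), and higher in cerebellum than in striatum, by 1.97 ± 0.13, as its guide was. Relative to miR-181c-5p it stood at 0.537, 0.572 and 0.458 in the 3 regions.

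The passengers of the copies of miR-181a on chromosomes 1 and 2 differed in their balance between striatum and cortex. In naive wild-type mice miR-181a-1-3p, from chromosome 1, had 163 ± 19.8 CPM in cortex (SD, n = 5) and 168 ± 9.09 in striatum (SD, n = 6), and miR-181a-2-3p, from chromosome 2, had 6.23 ± 0.91 and 10.4 ± 1.59. Relative to the bulk of the miRNAs after TMM scaling, miR-181a-1-3p was at -0.27 ± 0.08 in striatum against cortex (edgeR adjusted p = 0.0071), a decrease that its CPM did not show, and miR-181a-2-3p was at 0.41 ± 0.15 (edgeR adjusted p = 0.031). In the other mouse groups the values were -0.34 to -0.43 for miR-181a-1-3p and 0.72 to 0.87 for miR-181a-2-3p, each called. The ratio of miR-181a-2-3p to miR-181a-1-3p stood at 0.0310 in cortex, 0.0647 in striatum and 0.0285 in cerebellum, so the chromosome 1 passenger was the more abundant one in all 3 regions. miR-181b-1-3p and miR-181b-2-3p had means of 0.42 to 0.58 CPM in the 3 regions.

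**Figure D3:**
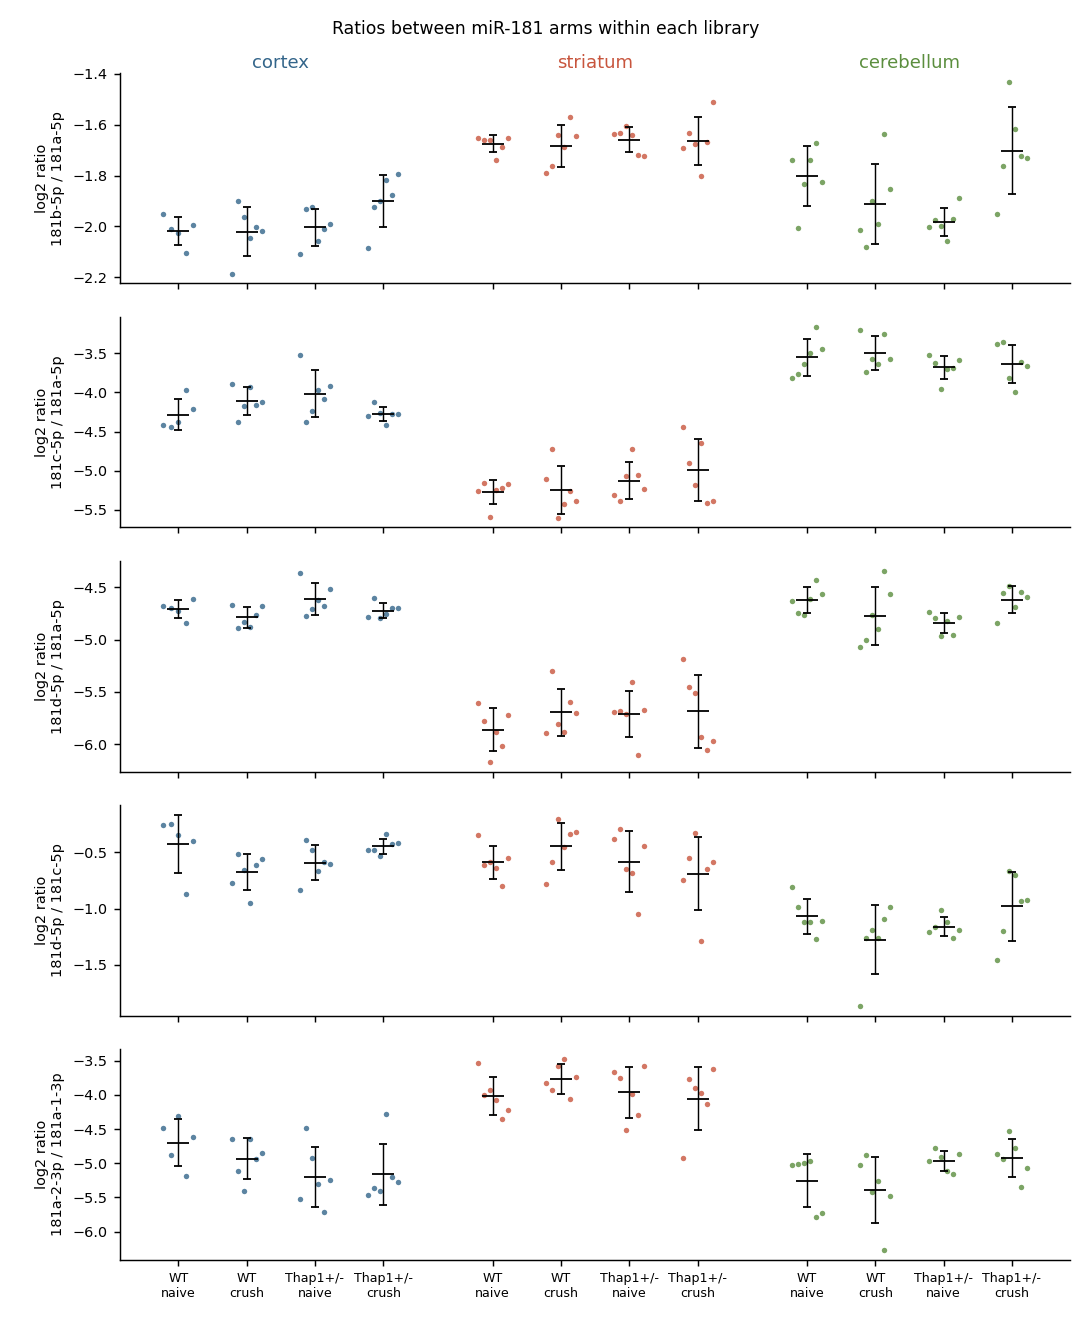
Each panel plots the log2 ratio of 2 miR-181 arms within a library (0.5 counts added to each) against the 12 groups, with points for libraries and bars for the mean ± SD. Striatum is lowest for miR-181c-5p and miR-181d-5p over miR-181a-5p and highest for miR-181a-2-3p over miR-181a-1-3p, and cerebellum is lowest for miR-181d-5p over miR-181c-5p.

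Nerve crush in wild-type cortex was accompanied by small decreases of 3 guides and an increase of 1 passenger, relative to the bulk of the miRNAs. In crushed mice the lowest, median and highest levels were 2289, 2630 and 2747 CPM for miR-181a-5p, 565, 629 and 735 for miR-181b-5p, and 83.9, 91.2 and 103 for miR-181d-5p. Set beside the naive libraries above, the groups overlapped for all 3 in CPM. miR-181c-5p had 132, 140 and 176 CPM after crush, also with overlap. miR-181d-3p had 2.21, 3.42 and 4.91 CPM, and all but 1 crushed library, CX_wt_crush_11, lay above the highest naive one.

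After TMM scaling, with 35.0% of 549 miRNAs called, 13.8% as lower and 21.1% as higher, 4 of the 5 members were called. miR-181a-5p fell by 0.28 ± 0.07 on the log2 scale (edgeR adjusted p = 0.00494), miR-181b-5p by 0.28 ± 0.08 (edgeR adjusted p = 0.00889) and miR-181d-5p by 0.37 ± 0.09 (edgeR adjusted p = 0.00498). miR-181d-3p rose by 0.69 ± 0.24 (edgeR adjusted p = 0.0277), a call lost without any 1 of 5 libraries (CX_wt_crush_2 or 3 and CX_wt_naive_67, 96 or 124; edgeR adjusted p of 0.0532 to 0.0768). miR-181c-5p was at -0.10 ± 0.14 and did not pass.

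These decreases depended on the scaling. The TMM factor was 0.880 ± 0.0313 in naive (SD, n = 5) and 1.09 ± 0.0388 in crushed wild-type cortex (SD, n = 6), and the median of all miRNAs was 0.06 after TMM and 0.36 on library totals. On library totals alone miR-181a-5p was at 0.02, miR-181b-5p at 0.02 and miR-181d-5p at -0.06, none of them called, and miR-181d-3p at 1.00 was the only member called. With RLE scaling the 3 guides stood at -0.34, -0.34 and -0.42, all called, and without the filter on low counts miR-181b-5p was not called (edgeR adjusted p = 0.0517). In CPM the group means of these 3 guides differed by less than the SD of either group. The let-7 and miR-98 rows took 51.5% to 56.6% of the counts in naive and 41.4% to 48.6% in crushed wild-type cortex.

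The sums of 5 neuron markers were 111380 to 133834 CPM in naive and 133922 to 167801 in crushed wild-type cortex, and those of 5 markers of microglia and white blood cells 237 to 279 and 351 to 471 CPM. For 5 markers of choroid plexus and ependyma the sums were 158 to 204 and 209 to 313 CPM. These sums are in CPM, without the TMM factors, which were higher in the crushed libraries, so they are not on the scale of the fold changes. After TMM scaling 1 of the neuron markers was called (miR-129-5p, lower by -0.52 ± 0.15) and of the microglia and white blood cell markers 2, 1 in each direction. The part of these cell types in the miR-181 values was not tested. The ratio of miR-181d-3p to its guide miR-181d-5p, which no scaling moves, was higher by 1.03 after crush without overlap of the groups. It did not pass adjustment over 60 comparisons within regions (two-sided exact permutation test, p = 0.00433, adjusted p = 0.0866). With 462 relabellings no single ratio could pass that adjustment by itself, so the adjusted value does not decide whether this ratio differed. Of the other arms, miR-181a-1-3p, miR-181a-2-3p and miR-181c-3p were tested and none was called, with values of 0.06 ± 0.09, -0.15 ± 0.20 and 0.21 ± 0.17.

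In Thap1+/- cortex the same comparison called 4 miRNAs in all, 0.729% of those tested, and no member. Levels in naive Thap1+/- cortex were 2157, 2675 and 2870 CPM for miR-181a-5p (lowest, median and highest), 103, 172 and 222 for miR-181c-5p and 78.6, 112 and 125 for miR-181d-5p. After crush they were 1921, 2226 and 2583, 89.8, 115 and 131, and 71.0, 83.0 and 94.1 CPM. The highest miR-181c-5p was that of CX_DYT6KO_naive_16. CX_DYT6KO_naive_18 was the lowest naive library in all 3 and lay within the range of the crushed libraries. The other 5 naive libraries lay above every crushed library for miR-181c-5p and miR-181d-5p.

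The log2 fold changes were -0.52 ± 0.14 for miR-181c-5p (edgeR adjusted p = 0.0684), -0.35 ± 0.09 for miR-181d-5p (edgeR adjusted p = 0.057) and -0.22 ± 0.07 for miR-181a-5p (edgeR adjusted p = 0.135). miR-181b-5p was at -0.12 ± 0.08 and miR-181d-3p at 0.13 ± 0.22. Without CX_DYT6KO_naive_18, 3 members were called, miR-181c-5p at -0.60, miR-181d-5p at -0.40 and miR-181a-5p at -0.24. Leaving out CX_DYT6KO_naive_16 and CX_DYT6KO_naive_18 together gave 2 calls. Without CX_DYT6KO_naive_48, 2 members were called, miR-181c-5p and miR-181d-5p. RLE scaling called the same 2, and DESeq2 called 3. In the authors' deposited table miR-181a-5p, miR-181c-5p and miR-181d-5p were at -0.25, -0.49 and -0.36 with adjusted p of 0.00304, 0.0058 and 0.00304. On library totals miR-181c-5p stood at -0.53.

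The crush effects of both genotypes were compared directly by the interaction, in which 13.5% of miRNAs were called and none of the members. miR-181c-5p had the largest difference among the guides, -0.41 ± 0.20 (edgeR adjusted p = 0.144), and was called without CX_DYT6KO_naive_18, at -0.49, and on library totals, at -0.73. Averaged over both genotypes, with 16.6% of miRNAs called and 5.83% as lower, the 4 guides fell after crush, by 0.25 ± 0.05 for miR-181a-5p, 0.20 ± 0.05 for miR-181b-5p, 0.31 ± 0.10 for miR-181c-5p and 0.36 ± 0.06 for miR-181d-5p. miR-181d-3p was at 0.41 ± 0.16 and did not pass (edgeR adjusted p = 0.0804). On library totals 2 members were called in this average, miR-181d-5p at -0.21 and miR-181d-3p at 0.56, while the median of all miRNAs was 0.17. The call of miR-181c-5p in the average was lost without any 1 of 8 libraries (edgeR adjusted p of 0.0515 to 0.0603), and without the filter on low counts both it and miR-181b-5p were not called (edgeR adjusted p = 0.0599 and 0.066).

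**Figure D4:**
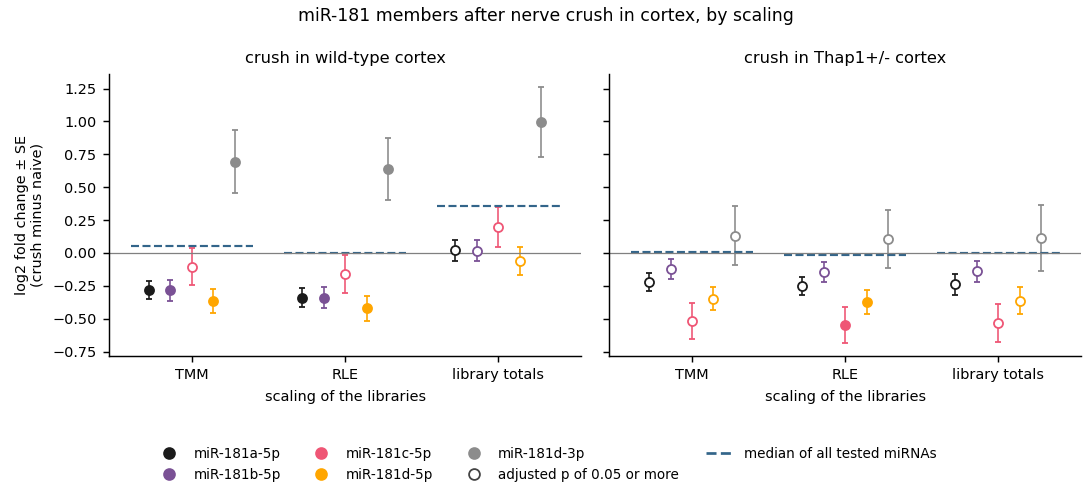
The vertical axis is the log2 fold change, crush minus naive, with its SE for each member in wild-type and Thap1+/- cortex, under 3 scalings of the libraries along the horizontal axis, and the dashed line is the median of all tested miRNAs. In wild type miR-181a-5p, miR-181b-5p and miR-181d-5p lie below the median under each scaling but near 0 on library totals, where the median is 0.36 and miR-181c-5p is at 0.20.

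No member was called for genotype in cortex. In naive mice 20.2% of miRNAs were called, with miR-181a-5p at -0.16 ± 0.07 (edgeR adjusted p = 0.103) and miR-181b-5p at -0.15 ± 0.08. DESeq2 called miR-181a-5p there, and the authors' deposited table has it at -0.17 with an adjusted p of 0.032. After crush and in the average of both treatments 0.00% of cortical miRNAs and no member were called, with member values of -0.39 to 0.02 and -0.13 to -0.04. The largest of these in size was miR-181d-3p after crush, at -0.39 ± 0.22.

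In striatum no member was called for genotype or crush. The share of miRNAs called was 0.174% for crush in wild type, 1.57% for crush averaged over genotypes, and 0.00% in the other 5 comparisons. The guides were at 0.11 ± 0.11 to 0.28 ± 0.21 for crush in wild type and 0.07 ± 0.13 to 0.23 ± 0.22 for crush in Thap1+/-. For genotype they were at 0.08 ± 0.11 to 0.26 ± 0.22 in naive mice and 0.04 ± 0.11 to 0.34 ± 0.22 after crush. A single library, STR_DYT6KO_naive_63, was the highest of its group in each guide, with 2664 CPM of miR-181a-5p and 100 CPM of miR-181c-5p. Its let-7 and miR-98 rows took 39.0% of the counts, the lowest share of any library.

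In cerebellum no member was called either. The share of miRNAs called was 13.4% for genotype after crush, 5.25% for crush in Thap1+/-, 13.0% for genotype averaged over treatments and 3.26% for crush averaged over genotypes, and 0.00% for genotype in naive mice, crush in wild type and the interaction. The values nearest to a call were those of crush in Thap1+/-, where miR-181b-5p was at 0.50 ± 0.20 (edgeR adjusted p = 0.11), miR-181d-5p at 0.46 ± 0.21, miR-181c-5p at 0.33 ± 0.23 and miR-181a-5p at 0.21 ± 0.20. Leaving out CB_DYT6KO_crush_117 or CB_DYT6KO_crush_133 brought 1 member past the threshold. Without CB_DYT6KO_crush_46 the same 4 values were 0.18, 0.08, -0.13 and -0.13, and none was called.

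That library held more of each guide than any other of the 71. miR-181a-5p had 4715 CPM in it, against 1579 to 1959 in the other 5 of its group, miR-181b-5p 1391 against 506 to 623, miR-181c-5p 461 against 99.2 to 188, and miR-181d-5p 200 against 61.1 to 77.4. Relative to the mean of the other 5, these levels were 2.66, 2.53, 3.29 and 2.79 times as high. The passengers did not stand out there. miR-181d-3p, miR-181a-1-3p, miR-181a-2-3p and miR-181c-3p, at 1.31, 149, 4.82 and 90.8 CPM, lay within the range of the other 5 libraries.

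Of 256 miRNAs with a mean of at least 10 CPM in the group, 19 were at least 2 times as high in this library as the mean of the others, and the 4 guides ranked 2, 4, 5 and 6. The neuron marker miR-124-3p had 49254 CPM against 10198 to 16639, and the sum of the 5 neuron markers was 91847 against 37707 to 61317 CPM. Of the other neuron markers, miR-128-3p, miR-9-5p and miR-129-5p were within range, at 9878, 22641 and 1292 CPM. miR-138-5p was at 8781 against 3875 to 7912 CPM. The cerebellar miRNA miR-206-3p was at 2562 CPM in this library, the lowest of a group that reached 3718. Its sum of 5 choroid plexus and ependyma markers, 1483 CPM against 605 to 1279, and of 2 hindbrain markers, 516 against 316 to 399, was the highest of the group. In naive wild-type cerebellum these sums were 700 to 1575 and 127 to 747 CPM, and miR-206-3p was at 2146 to 3121. For miR-206-3p and both sums the library thus lay within the range of that other group. Which of the features of this library goes with the raised guides was not tested.

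**Figure D5:**
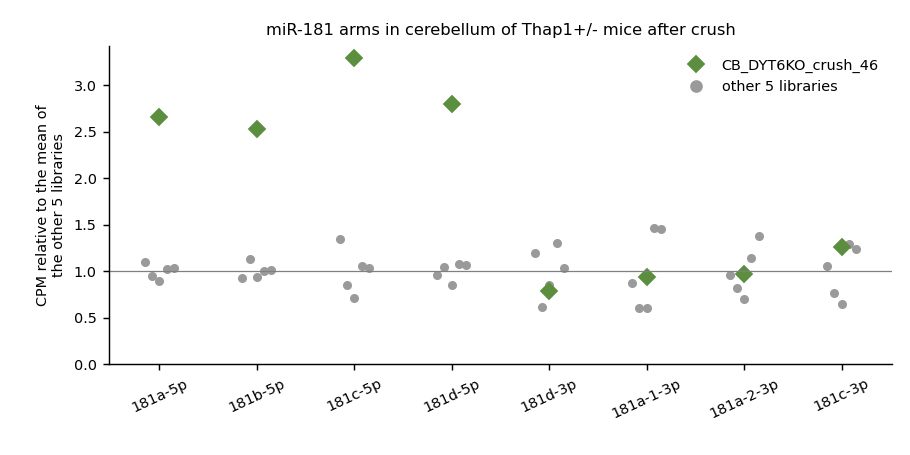
The vertical axis is the CPM of each miR-181 arm in the 6 cerebellar libraries of crushed Thap1+/- mice, divided by the mean of the other 5 libraries, for the arms with a mean of at least 1 CPM. CB_DYT6KO_crush_46 (diamonds) stands at 2.53 to 3.29 for the 4 guides and within the other libraries (grey points) for the 4 passengers.

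Whether genotype or crush acted differently between regions was tested in 15 comparisons of effects. No member was called in any of them. The share of 655 miRNAs called was 22% for crush in wild type, 7.63% for genotype in naive mice, 5.34% for the interaction, 0.458% for crush in Thap1+/- and 0.00% for genotype after crush between striatum and cortex. Between cerebellum and cortex these were 22.6%, 19.8%, 0.00%, 0.153% and 0.153%, and between cerebellum and striatum 5.80% for genotype after crush and 0.00% for the other 4. The smallest adjusted p among members was that of miR-181a-5p for crush in wild type, cerebellum minus cortex, at 0.45 ± 0.20 (edgeR adjusted p = 0.106). A call in cortex and none in striatum or cerebellum is therefore not shown to be a difference between the regions.

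Among 292 miRNAs with a mean of at least 10 CPM, those with the pattern most like miR-181a-5p over the 12 group means after TMM scaling were let-7g-5p (Spearman's rho 0.986), miR-30c-1-3p (0.979), let-7c-5p (0.972), let-7d-5p (0.951) and miR-124-3p (0.951). The most like miR-181c-5p were let-7g-5p (0.972), its own passenger miR-181c-3p (0.965), miR-124-3p (0.958), the joint row of miR-28a-5p and miR-28c (0.958) and let-7c-5p (0.944). miR-181a-5p had 0.965 to 0.986 with the other 3 guides. The order of the groups depended on the scaling. In plain CPM, an alternative chosen after seeing the data, miR-181a-5p had 0.217 to 0.594 with the 5 named for it and 0.483 to 0.860 with the other guides, and miR-181c-5p 0.853 to 0.930 with the 5 named for it. miR-30c-1-3p had 96.0, 95.2 and 90.1 CPM in cortex, striatum and cerebellum, which is not the order of miR-181a-5p. These are descriptions over 12 groups that share the scaling and come from 3 regions, and let-7 guides dominate the counts of every library. let-7g-5p had 71674 ± 6501 CPM in cortex (SD, n = 23), 57932 ± 4739 in striatum (SD, n = 24) and 92302 ± 5262 in cerebellum (SD, n = 24).

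Beside the family, 2 lists that touch on roles named for it were followed. Their values are all after TMM scaling, whose factor was 0.880 in naive and 1.09 in crushed wild-type cortex. Decreases of miR-181 guides after crush in wild-type cortex were not called on library totals. How far the calls of the lists depend on the scaling was not tested. Of 19 tested miRNAs tied to mitochondria and energy metabolism, 8 were higher and 6 lower after crush in wild-type cortex, where 21.1% of all miRNAs were higher and 13.8% lower, with a median of 0.41 against 0.06 over all miRNAs. miR-499-5p, a cardiac muscle miRNA, was at 0.69 ± 0.12 and 3 members of a family that restrains the cell cycle split, with miR-15a-5p at 0.94 ± 0.17 and miR-15b-5p at 0.87 ± 0.19 but miR-16-5p at -0.41 ± 0.08. For striatum against cortex in naive wild-type mice, with 54.6% of all miRNAs called, 7 were higher and 5 lower, with a median of 0.10 against 0.19 over all miRNAs. There miR-34a-5p, a target of p53, was at -2.40 ± 0.14 and miR-195a-5p at -1.29 ± 0.10, and miR-378a-5p at 1.72 ± 0.22.

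Of 13 tested miRNAs tied to dopamine neurons and striatum, 3 were higher and 1 lower after crush in wild-type cortex, at the same 35.0% of all miRNAs called, with a median of 0.05. They were miR-218-5p at 0.45 ± 0.10, miR-153-3p at 0.67 ± 0.19, miR-9-3p at 0.28 ± 0.09 and, lower, miR-382-5p at -0.63 ± 0.11. In striatum against cortex, at 54.6% of all miRNAs called, 4 were higher and 7 lower, with a median of -0.30. miR-7a-5p, known to repress alpha-synuclein, was at 1.85 ± 0.14 and miR-218-5p at 0.84 ± 0.09, while miR-128-3p, a neuronal miRNA, was at -0.81 ± 0.07 and miR-132-3p, which follows neuronal activity, at -0.97 ± 0.11.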

How the data were processed

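Per the labels' protocols, a QIAseq kit turned 10 ng of RNA into each miRNA library, after extraction with a miRNeasy mini kit (cerebellum) or micro kit (cortex, striatum). The authors counted with featureCounts 1.6.4, per the submitters' processing notes. The sources used here do not name an aligner or annotation, nor how molecular identifiers were handled. The deposited count columns are whole-number counts per mature miRNA without normalization. The authors' deposited tables also hold DESeq2 results per the file headers (mean signal, log2 fold change, score, p-value), read only for the values quoted. Of 72 labelled samples 71 libraries were analysed, grouped by column name, and 284 further columns were not used. No library repeated the counts of another in its group. The closest pair, CB_DYT6KO_crush_117 and CB_DYT6KO_crush_133, had a chi-square of 10.9 per degree of freedom, and the next closest pair 25.5. Whether any pair came from the same RNA cannot be told from these values.

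Counts were tested with edgeR 4.0.16 (R 4.3.3), with TMM, filterByExpr and all 4 groups of a region in 1 fit. The naive wild-type libraries were fitted apart for the regions, and a joint fit over all libraries served the other groups. This gave 33 comparisons, with 549 miRNAs tested in cortex, 575 in striatum, 552 in cerebellum, 579 in naive wild-type mice and 655 jointly. The test was checked on simulated data. Ratios between members (0.5 counts added) were compared by exact permutation tests. Alternatives were DESeq2 1.42.0, RLE scaling, library totals alone (chosen after seeing the data), other filters, no let-7 rows, left-out libraries and a replicate block. Deviations from the group means of same-numbered libraries correlated above 0.1 in 48 of 70 pairs (median 0.18, from -0.36 to 0.55). The rule for pairing asked for more than 0.1 in every pair of a set, which 2 of 12 sets met. By this rule numbers were taken to pair samples between striatum and cortex (0.12 to 0.37) and striatum and cerebellum (0.14 to 0.51) of naive wild-type mice. Cortex and cerebellum of that mouse group carry the same numbers but fell short (0.08 to 0.50). The 5 members are named in every comparison. Other miRNAs come from likeness, the lists of mitochondrial and of dopamine miRNAs (at most the 4 smallest p called) and markers. Members and lists were chosen with earlier results of these data known.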

Additional observations from a re-analysis of the deposited data

Results flagged for a closer look

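In a group of 6, a library was marked where it lay far from the nearest of the others relative to the range of the group. Of 120 sets of values examined, 9 were marked, and chance marks about 1 in 20. The levels of CB_DYT6KO_crush_46 account for 4 of them, at 4715 CPM of miR-181a-5p (others 1579 to 1959), 1391 of miR-181b-5p (506 to 623), 461 of miR-181c-5p (99.2 to 188) and 200.3 of miR-181d-5p (61.1 to 77.4). None of the ratios between members was marked in that library.

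CB_wt_naive_31 had 148.7 CPM of miR-181c-5p, below the 184.4 to 204 of the other 5. The log2 ratio of miR-181c-5p to miR-181a-5p was -5.59 in STR_wt_naive_96, against -5.27 to -5.16 in the others. The log2 ratio of miR-181d-5p to miR-181c-5p was -0.87 in CX_wt_naive_118 (others -0.39 to -0.25) and -1.87 in CB_wt_crush_2 (others -1.26 to -0.99). STR_wt_crush_11 had 0 counts of miR-181d-3p, which puts its log2 ratio to miR-181d-5p at -9.34 with the 0.5 counts added, against -5.40 to -4.07.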

How the results depend on the processing

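On library totals alone the number of members called moved by more than 1.5 times in 10 of 33 comparisons, and the cause was not tested. Between cerebellum and cortex it was 0 in crushed wild-type and in naive Thap1+/- mice and 1 in crushed Thap1+/- mice, and between cerebellum and striatum 3, 2 and 2 in that order. It was 3 for striatum against cortex in naive wild-type mice, 1 for crush in wild-type cortex, 2 for crush averaged over genotypes in cortex and 1 for the cortical interaction. The sign turned for miR-181a-5p (-0.162), miR-181b-5p (-0.0625) and miR-181d-5p (-0.155) in cerebellum against cortex of crushed wild-type mice. It also turned for miR-181b-5p in cerebellum against striatum of naive Thap1+/- (-0.0558) and crushed wild-type mice (-0.0137), and for miR-181a-5p (0.0193) and miR-181b-5p (0.0180) after crush in wild-type cortex.

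DESeq2 called 3 members for crush in Thap1+/- cortex, 1 for genotype in naive cortex, 1 for crush in Thap1+/- cerebellum and 5 for striatum against cortex in naive Thap1+/- mice. For crush in Thap1+/- cortex, RLE scaling called 2, a minimum of 10 CPM 3, and leaving out the naive libraries 16 and 18 together 2. Without a filter on low counts 2 were called for crush averaged in cortex, and without let-7 and miR-98 none (0) for cerebellum against cortex in naive Thap1+/- mice. The cause of these was not tested.

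Leaving out 1 library at a time left 627 of 639 such counts within 1.5 times. The others ranged from 0 to 3 for crush in Thap1+/- cortex, 0 to 1 for the cortical interaction and for crush in Thap1+/- cerebellum, 0 to 2 for cerebellum against cortex in naive Thap1+/- mice and 2 to 4 in crushed wild-type mice, the 2 without CX_wt_crush_139.

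Replicate numbers recur across regions but the labels tie none to an animal. The rule above paired striatum with either other region in naive wild-type mice, but not cortex with cerebellum. A number that marks 1 mouse in both of those pairs would mark it between cortex and cerebellum too, so the rule does not settle the pairing. The main fits and the exact permutation tests treated all libraries as independent. The replicate block changed no call of a member in naive wild-type mice. In the other mouse groups the rule was not met. There the replicate block called 3 members for cerebellum against cortex in naive Thap1+/- mice, with miR-181a-5p and miR-181b-5p added, and 4 for striatum against cortex in those mice, with miR-181b-5p added. Within regions no paired analysis was possible because the groups share no number. Depth limits miR-181d-3p most, with at most 49 counts in a library.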
